A study of Taeniopygia guttata with 48 samples.

Results

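The RNA of adult male and adult female zebra finches (Taeniopygia guttata) was compared in the nucleus taenia, in birds whose eggs had received oil alone. The genes described are the 13462 of 17475 in the table (77.0%) whose mean over the 6 libraries, 3 male and 3 female, was at least 1 FPKM (sequenced fragments counted per length of transcript and per total of mapped fragments). Ratios are male over female, taken between the arithmetic means of the 3 libraries of each sex and given on a log2 scale, where 1 is a doubling. Of the 4013 genes left out, 1510 were at 0 in all 6 libraries. The lowest mean kept was 1.00 FPKM and the highest left out was 0.998 FPKM, with 124 genes kept between 1 and 1.1 FPKM and 111 left out between 0.9 and 1.

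Per the labels, the oil eggs got 5 µl of peanut oil on the day of laying, and the testosterone eggs of the same study got 500 pg of the steroid in that volume. A 1 mm punch was taken from 50 µm frozen sections of the adult brain, and libraries that keep the strand were made from mRNA. The study holds 24 RNA libraries, in 8 groups of 3 by region, sex and treatment, and 24 methylation samples that were not analysed here. No genotype, strain or age in days was given, and all groups carried the oil injection. Whether a library is a single bird is not stated, and the p-values cover only the variation among these samples, which may be technical. Nor is it stated whether the nucleus taenia and hypothalamus libraries come from the same birds.

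The nucleus taenia belongs to the amygdala of birds, is rich in sex steroid receptors and is known for its role in social and sexual behaviour. Male birds carry a pair of Z chromosomes, and female birds carry a single Z with a W. Birds lack a chromosome-wide mechanism that makes Z expression equal in both sexes, and many Z genes are known to be expressed more highly in males. The deposited identifiers were of the Ensembl type, and 0 of 17475 matched the gene table at hand, so no gene below has a name, a role or a chromosome. The share of Z genes among the genes described was therefore not tested, and the labelled tissue could not be checked against marker genes.

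The 6 libraries were alike in the number of genes above 0, in the median and in rank order. Each held between 14386 and 15105 genes above 0, and the median of the 13462 genes lay between 20.5 and 21.7 FPKM. Rank correlations over these genes were 0.888 to 0.951 in the 6 pairs of libraries of 1 sex and 0.875 to 0.937 in the 9 male-female pairs, so the profiles did not fall apart by sex. The 10 most abundant genes took 6.58% to 7.03% of the total FPKM in males and 8.21% to 9.87% in females, ranges that did not overlap. Total FPKM was also apart by sex, at 891402 to 948219 in males and 957664 to 1.08687e+06 in females. FPKM is relative within a library, and the part of those differences in the results was not tested. The read depth is unknown. Elsewhere in the study 2 libraries stood apart by their mean correlation with the other libraries over these genes: female testosterone hypothalamus replicate 3 at 0.758 and male testosterone nucleus taenia replicate 2 at 0.845, against at least 0.883 in the rest. Several results that rest on them, though not all, are also given without them. In tissue punches, fewer cells of a type and less RNA per cell cannot be told apart.

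Across all genes, the distribution of ratios did not lean toward males. The median log2 ratio was -0.03, the central 80% of genes lay between -0.66 and 0.66, and 6324 genes (47.2%) had a higher mean in males against 7074 in females. In the 9 single male-female library pairs, which share libraries, the median ran from -0.025 to 0.020, so its sign varied. At least 1.5-fold differences were nearly balanced, with 1556 genes (11.6%) higher in males and 1636 (12.2%) higher in females. Differences of 2-fold or more numbered 641 and 677 genes. Beyond 3-fold the female side was the longer, with 278 genes against 171, and the skewness of the log2 ratios was -0.72.

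A male excess appeared in a band of sizes only. When the ratios were counted in bins of 0.1 and each male-higher bin was set against its female-higher mirror, every bin below 0.8 had more female-higher genes and every bin from 0.8 to 1.4 had more male-higher genes. The widest male excess was 109 against 67 genes at 1.1 to 1.2, which is 2.14 to 2.30 fold. In the bin from 0.9 to 1.0, just under 2-fold, the counts were 161 and 137. These counts include many genes whose 3 values within a sex were far apart.

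No ratio could be given for 64 genes listed at 0 in all 3 libraries of a sex. All 64 met the minimum mean of 1 FPKM through the other sex alone, which sets a floor on their levels there. Of these, 26 were at 0 in females, with a median of 5.59 FPKM and a maximum of 164 FPKM in males. The other 38 were at 0 in males, with a median of 4.70 FPKM and a maximum of 42.3 FPKM in females. Most were unsteady: 3 of the 26 and 6 of the 38 were above 0 in all 3 libraries of the other sex. Over the whole study, 9 of the 26 were at 0 in all 12 female libraries and 8 of the 38 in all 12 male libraries. The share of all genes at 0 in the 12 libraries of a sex was not counted.

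No single gene passed the test for a sex difference. A limma fit to the log2(FPKM + 1) values of the 12 nucleus taenia libraries called 0 of 13462 genes (0%) at a Benjamini-Hochberg adjusted p under 0.05, and the smallest adjusted p was 0.0611. At an unadjusted p under 0.05 there were 871 genes (6.47%), of which 503 (3.74%) were higher in males and 368 (2.73%) higher in females. The 95% interval of a gene's difference reached a median of 0.79 log2 units, or 1.73-fold, to either side. For 5665 genes that interval lay wholly within 2-fold, so a larger sex difference on that scale is outside the interval. These folds are of FPKM + 1, and for low genes the fold in FPKM itself can be larger. The count of calls moved with the fit: 19 genes passed in a fit to all 24 libraries, 18 of them higher in males. With limma library weights 57 passed, 54 of them higher in males, and without male testosterone replicate 2, which bears on this contrast only through the pooled spread, 26 passed, 24 of them higher in males.

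The genes nearest to the threshold were mostly male-higher. At an adjusted p under 0.1 by limma there were 20 genes, 18 higher in males by 0.95 to 1.41 on the log2 scale and 2 higher in females. The libraries of testosterone birds took no part in the oil means, but they entered the pooled spread behind these p-values. In testosterone birds the difference on the log2(FPKM + 1) scale had the same sign for 18 of the 18 and for 2 of the 2. For the female-higher gene ENSTGUG00000015809 that difference was only -0.09. Its mean FPKM in testosterone birds was slightly higher in males, at 8.01 against 7.58, so its sign there depended on the scale. Of the 503 male-higher genes at an unadjusted p under 0.05, 408 (81.1%) were also higher in testosterone males, with a median difference of 0.56 there and 0.92 in oil birds. Of all 13462 genes, 48.7% had that sign in testosterone birds. Of the 368 female-higher genes, 246 (66.8%) were also higher in testosterone females, with a median of -0.24 there and -0.84 in oil birds, and 51.1% of all genes had that sign. Without male testosterone replicate 2 the counts were 439 of 503 (87.3%, against 44.0% of all genes) and 277 of 368 (75.3%, against 55.8%), and still 18 of 18 and 2 of 2. Genes called by limma at the adjusted threshold in testosterone birds numbered 7 (0.052%), all higher in males. At an unadjusted limma p under 0.05 there were 1366, with 614 higher in males and 752 higher in females. Without male testosterone replicate 2 limma called 0 genes, and 891 had an unadjusted p below 0.05, 447 higher in males and 444 in females.

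The 2 genes in each direction with the largest moderated t among those whose 3 male and 3 female values did not overlap are given in full. None passed the threshold in oil birds. ENSTGUG00000001165 stood at 103, 93.6 and 96.7 FPKM in the oil males and at 37.0, 38.4 and 35.6 FPKM in the oil females. Every male value was more than double every female value, and the spread within a sex was small, at 97.7 ± 4.78 and 37.0 ± 1.42 FPKM (mean ± SD, n = 3). The log2 difference was 1.38 with an SE of 0.16, and the limma adjusted p was 0.0611. In testosterone birds the same gene stood at 115, 103 and 83.5 FPKM in males and at 41.2, 41.7 and 39.4 FPKM in females. Its difference of 1.27 there passed the threshold, with a limma adjusted p of 0.0479, but it did not without male testosterone replicate 2 (limma adjusted p = 0.0864).

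ENSTGUG00000000824 showed a like pattern, at 80.0, 85.6 and 98.9 FPKM in oil males and 37.3, 36.1 and 33.5 FPKM in oil females. The mean was 88.1 ± 9.69 FPKM in males and 35.6 ± 1.96 FPKM in females (SD, n = 3), a log2 difference of 1.28 with an SE of 0.18 and a limma adjusted p of 0.0814. The testosterone males held 68.9, 59.6 and 76.6 FPKM and the testosterone females 32.4, 39.9 and 32.4 FPKM. The sexes were again apart, by 0.95 on the log2 scale.

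The female-higher genes were of low abundance. ENSTGUG00000015809 was at 1.94, 0.344 and 1.16 FPKM in oil males and at 8.29, 14.1 and 14.3 FPKM in oil females. The mean was 1.15 ± 0.80 FPKM in males and 12.2 ± 3.40 FPKM in females (SD, n = 3). On the log2(FPKM + 1) scale the difference was -2.66 with an SE of 0.42, at a limma adjusted p of 0.0814. In testosterone birds the sexes overlapped, with 4.70, 14.3 and 5.03 FPKM in males and 8.06, 6.89 and 7.80 FPKM in females. The change of the sex difference with treatment was 2.57 on the log2 scale, which did not pass (limma adjusted p = 0.865). In the oil hypothalamus the gene was again low in males, at 0.958, 0 and 2.21 FPKM, and higher in females, at 7.96, 17.7 and 13.1 FPKM.

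ENSTGUG00000015894 was listed at 0 in the 3 oil males and stood at 7.11, 4.42 and 7.86 FPKM in the oil females. It met the minimum mean of 1 FPKM through the females alone, so its place among the genes tested depended on the sex where it was high. The difference on the log2(FPKM + 1) scale was -2.87 with an SE of 0.49, and the limma adjusted p was 0.0835. In testosterone birds the males held 0.716, 5.87 and 0.776 FPKM and the females 6.02, 5.61 and 9.26 FPKM, so that 1 male library reached into the female range. It was male testosterone replicate 2, which was also the male library at 14.3 FPKM for ENSTGUG00000015809. The other testosterone males were at 4.70 and 5.03 FPKM for that gene, below all 3 females.

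**Figure D1:**
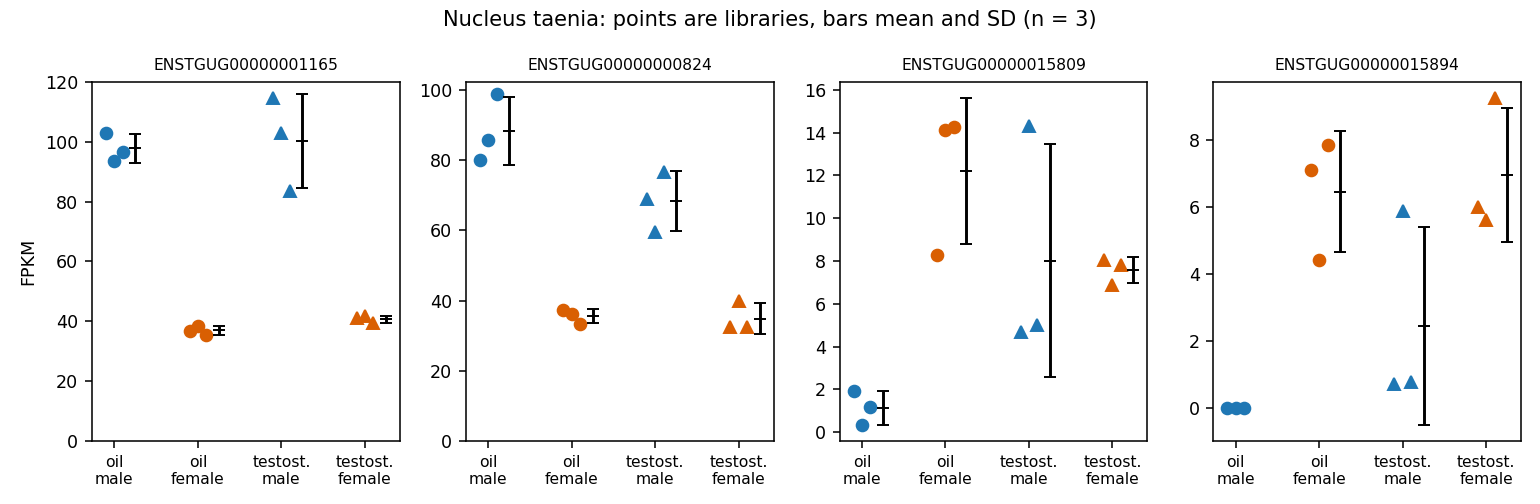
FPKM of the 4 genes with the largest moderated t in either direction, in oil and testosterone birds of both sexes. Points are libraries and bars are the mean and SD of 3 libraries, with no bar where all 3 are listed at 0. The 2 male-higher genes keep the sexes apart in both treatments, and in the 2 female-higher genes 1 testosterone male library reaches or passes the female range.

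Non-overlap of the 3 male and 3 female values was counted next, as a description, since 3 against 3 allow no two-sided exact permutation p below 0.10. Both directions were equally frequent, with 958 genes (7.12% of all) higher in males and 964 (7.16%) higher in females. They differed in size. Below 1.5-fold there were 369 male-higher and 543 female-higher genes. Between 1.5 and 2-fold the counts were 332 and 241, between 2 and 2.5-fold 140 and 59, and above 2.5-fold 114 and 115. The male-higher count per bin of 0.1 fell to 69 at 0.7 to 0.8, rose to 86 at 0.8 to 0.9 and held 73 at 0.9 to 1.0, while the mirrored female-higher counts fell from 67 to 49 and 34. The male excess was widest at 0.9 to 1.0, which is 1.87 to 2 fold, and the female excess was widest at 0.3 to 0.4, with 182 against 101 genes.

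Over the full range from 1 to 2-fold, 701 non-overlapping genes were higher in males and 784 in females, so the male excess of the upper sizes was outweighed by the female excess of the lower ones. The sign of that balance was not stable. With median-ratio scaling the counts were 736 and 722, with quantile normalization 745 and 735, and without male oil replicate 1 they were 1417 and 1367. Without female oil replicate 3 they were 1057 and 1302, without female replicate 2 1247 and 1477, and without female replicate 1 1107 and 1299. Leaving out male replicate 2 gave 1077 and 1208, and leaving out male replicate 3 gave 1015 and 1161. With a library left out, 2 values of 1 sex are set against 3 of the other, so the sexes separate more easily. Those counts are therefore not comparable in size with 701 and 784.

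The male excess was clearest among genes that varied little within a sex. These steady genes had a mean of at least 5 FPKM and a pooled within-sex SD of log2(FPKM + 1) in the lowest 25% of such genes, an SD of at most 0.22. There were 2734 of them, and the sex difference played no part in that choice. Their median log2 ratio was -0.03, and 1268 were higher in males against 1466 in females, the same slight lean as among all genes. Beyond 1.5-fold the balance turned: 145 genes (5.30%) were higher in males and 48 (1.76%) in females. Beyond 2-fold the counts were 47 and 7, and the skewness of the log2 ratios was 0.90.

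Among the steady genes the male-higher side carried a shoulder just under 2-fold. The male-higher bins of 0.1 from 0.5 to 1.2 held 43, 26, 22, 26, 20, 15 and 12 genes, and the mirrored female-higher bins held 62, 20, 9, 5, 2, 3 and 1. The female side fell away steeply, and the male side stayed nearly level between 0.6 and 1.0. The male excess was widest at 0.8 to 0.9 (26 against 5 genes), which is 1.74 to 1.87 fold. The counts rose by only 4 genes at that point, so the pattern is a shoulder on a falling curve and not a peak set apart from it.

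**Figure D2:**
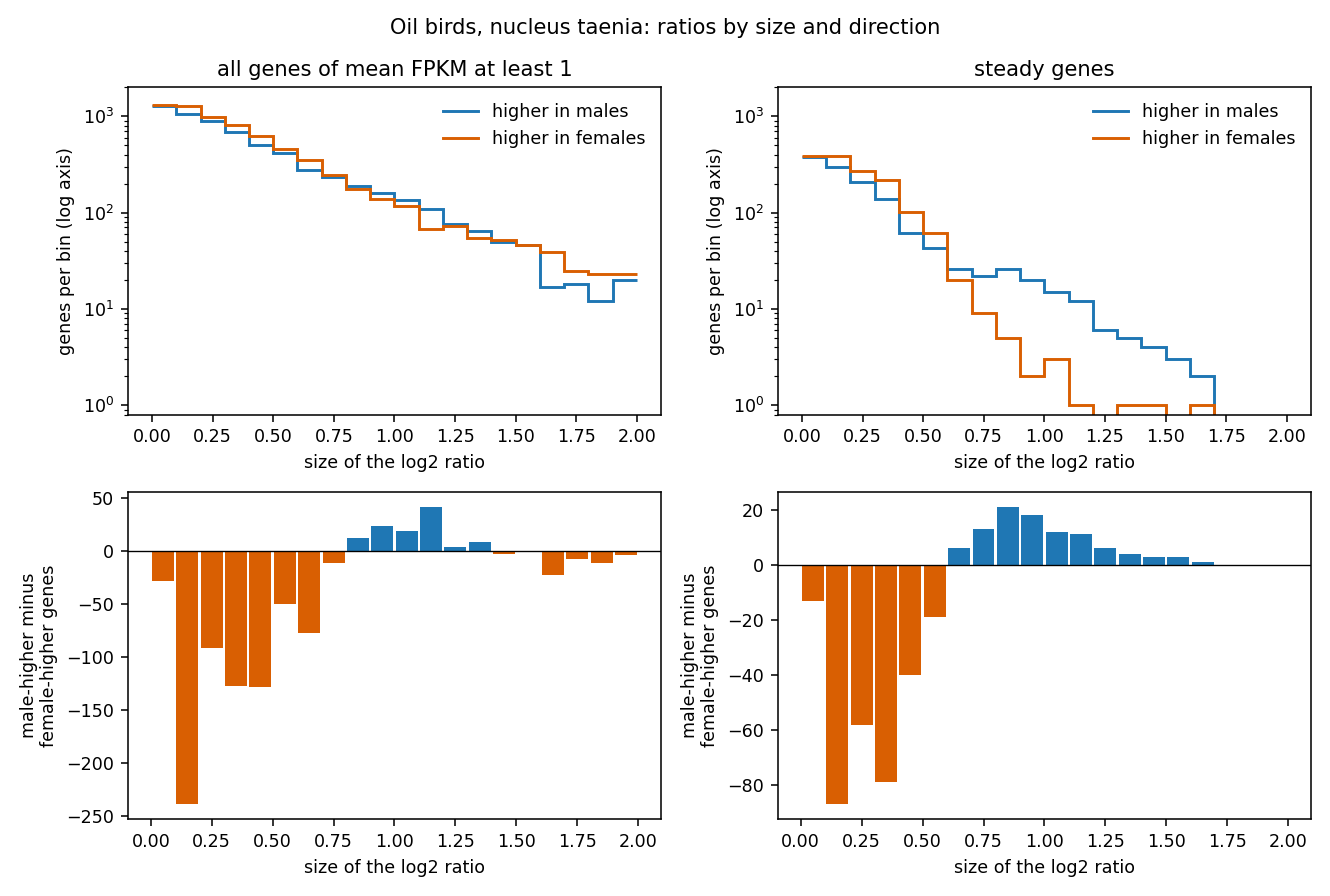
Genes per bin of 0.1 in the size of the log2 male to female ratio, for all genes of mean FPKM at least 1 (left) and for the 2734 steady genes (right). Upper panels give the male-higher and female-higher counts on a log axis, and lower panels give male-higher minus female-higher counts. Among the steady genes the male-higher curve stays near 20 to 26 genes between 0.6 and 1.0 while the female-higher curve falls to 2.

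The excess beyond 1.5-fold was positive in each of the 12 alternatives tried, but its size varied. It was 97 genes with all libraries (145 against 48), 62 without male replicate 2 (154 against 92 genes) and 55 without male replicate 3 (145 against 90). Leaving out a library also changes which genes count as steady and takes the mean of 1 sex over 2 values. Those counts are therefore not comparable in size with 97. Taking the lowest 10% in SD as steady left 59 male-higher and 13 female-higher genes. The bin with the widest male excess stayed under 2-fold without male replicate 2, female replicate 2 or female replicate 3. It moved to 2 to 2.14 fold without male replicate 3, and to 2.14 to 2.30 fold without male replicate 1 or female replicate 1.

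By abundance, the excess was not seen in the top 25% of genes. Of the non-overlapping genes at least 1.5-fold apart, 160 male-higher and 125 female-higher were in the lowest 25% by mean FPKM. The next 25% held 172 and 97, and the third held 147 and 82. In the top 25%, above 56.9 FPKM, the counts were 107 and 111. By within-sex SD, the steadiest 25% of all genes held 197 male-higher and 81 female-higher, and the least steady held 45 and 49.

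Once centred, the 9 male-female pairs of libraries leaned the same way, some of them only slightly. For this, 2743 genes steady in the testosterone nucleus taenia were used. The oil libraries entered that choice only through the minimum mean of 1 FPKM, and each pair's ratios were centred on their median. In 9 of 9 pairs more genes were at least 1.5-fold higher in the male library than in the female one, with 217 to 452 genes against 135 to 435. The ratio of the 2 counts ran from 1.04 to 1.64, and in the 6 same-sex pairs the larger count was up to 1.31 times the smaller. Some male-female pairs thus leaned no more than same-sex pairs did, with 349 against 337 and 452 against 435 genes. Others leaned more, such as 222 against 135. Without centring, 6 of the 9 pairs had more male-higher genes. The pairs share libraries and are not independent.

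The steady male-higher genes of oil birds were male-higher elsewhere too. The 145 genes had a median log2 ratio of 0.87 in the oil nucleus taenia, which chose them. In the testosterone nucleus taenia their median was 0.84, and 130 (89.7%) had the higher mean in males, against 52.4% of all genes. There 96 of the 145 (66.2%) did not overlap, against 7.02% of all genes. In the oil hypothalamus, whose libraries may or may not be of the same birds, the median was 0.76. There 129 (89.0%) were male-higher, against 51.0% of all genes, and 100 (69.0%) did not overlap, against 4.92% of all genes. In the testosterone hypothalamus the median was 0.55, and 55 (37.9%) did not overlap, against 9.1% of all genes. Without the libraries that stood apart, the median was 0.91 in the testosterone nucleus taenia, where 113 (77.9%) did not overlap against 10.1% of all genes. In the testosterone hypothalamus it was 0.79 without its outlying female, and 103 (71.0%) did not overlap against 14.4% of all genes.

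The larger the ratio in oil birds, the more often it was seen again. Of the 47 genes beyond 2-fold, 46 were male-higher in testosterone birds, with a median of 1.00. Of the 98 genes between 1.5 and 2-fold, 84 were male-higher there, with a median of 0.73. Of the 1123 steady genes less than 1.5-fold higher in oil males, 643 (57.3%) were male-higher in testosterone birds, with a median of 0.05. With all libraries that share lay near the 52.4% of all genes that were male-higher there. In the oil hypothalamus 487 of the 1123 (43.4%) were male-higher, against 51.0% of all genes. Without male testosterone replicate 2 the 3 counts in testosterone birds were 45, 87 and 692, and the medians 1.06, 0.80 and 0.07. Of all 13462 genes, 6152 were male-higher in that setting, with a median of -0.04. The genes less than 1.5-fold higher in oil males, 692 of 1123 with a median of 0.07, thus stood further above all genes there.

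The steady female-higher genes were seen again less fully, and not above the share of all genes in every set of libraries. The 48 genes had a median of -0.68 in the oil nucleus taenia and -0.25 in the testosterone nucleus taenia, where 6 (12.5%) did not overlap in the female-higher direction, against 8.82% of all genes. Without male testosterone replicate 2 the median was -0.31 and 11 (22.9%) did not overlap, against 13.5% of all genes. In the oil hypothalamus their median was -0.10, and 5 (10.4%) did not overlap, against 3.13% of all genes. In the testosterone hypothalamus their median was -0.21, and 2 (4.17%) did not overlap in that direction, against 9.07% of all genes. Without its outlying female the median was -0.07, and 4 (8.33%) did not overlap, against 15.4% of all genes. The contrast between the male-higher and female-higher lists was not itself tested.

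Read the other way, genes that separated the sexes in testosterone birds had ratios in oil birds with a second rise near 2-fold. The 945 genes non-overlapping and male-higher in the testosterone nucleus taenia had a median of 0.20 in oil birds. Of all genes 47.2% were male-higher in oil birds, and of these 945 genes 618 (65.5%) were. In bins of 0.2 from 0 upward they numbered 144, 121, 80, 65, 90, 53 and 32. The counts fell to 0.8, rose to 90 genes between 0.8 and 1.0, which is 1.74 to 2 fold, and fell again. When male testosterone replicate 2 was left out, the list held 1365 genes, with 99 between 0.6 and 0.8, 117 between 0.8 and 1.0 and 77 between 1.0 and 1.2. The 1188 female-higher genes of testosterone birds had a median of -0.11 in oil birds and a single summit of 257 genes between -0.2 and 0, with 32 genes between -1.0 and -0.8.

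**Figure D3:**
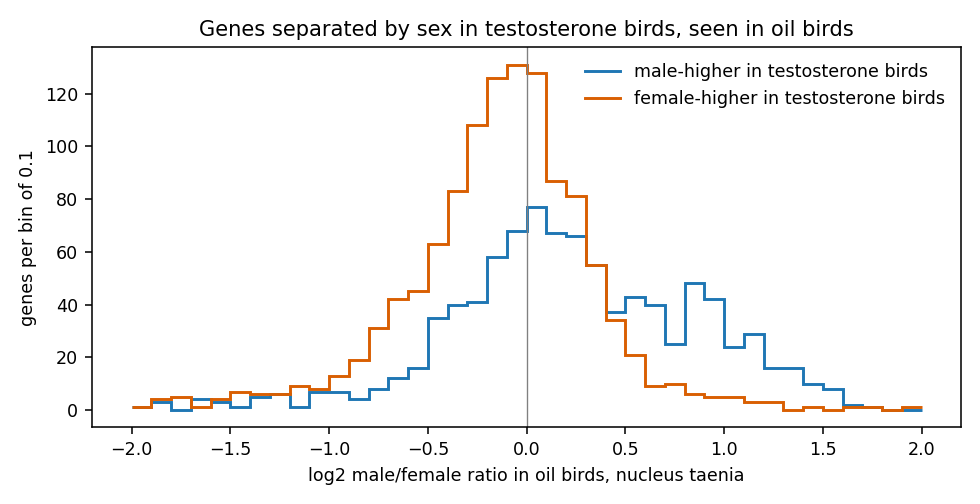
Log2 male to female ratios in the oil nucleus taenia, in bins of 0.1, of genes whose sexes did not overlap in the testosterone nucleus taenia. The blue line is the 945 male-higher genes and the orange line the 1188 female-higher genes. The blue line has a second rise between 0.8 and 1.0, and the orange line has a single summit near 0.

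The genes separated in the same direction in both treatments numbered 257 for males, which is 26.8% of the oil list and 27.2% of the testosterone list. Of all genes, 7.12% were on the oil list and 7.02% on the testosterone list. Their median ratio in oil birds was 0.88, or 1.84-fold, with an interquartile range from 0.67 to 1.13, and the fullest bin was 0.8 to 0.9 with 43 genes. For females they numbered 124, which is 12.9% of the oil list and 10.4% of the testosterone list, with a median of -0.59. Of all genes, 7.16% and 8.82% were on those lists. Separation in opposite directions was seen in 15 genes that were male-higher in testosterone birds and female-higher in oil birds, and in 25 genes with the reverse pattern. Without male testosterone replicate 2 the genes shared by both treatments numbered 358 for males (37.4% of the oil list and 26.2% of the testosterone list, median 0.86). For females they numbered 206 (21.4% and 11.3%, median -0.62), and the opposite directions held 22 and 34 genes. With 2 testosterone males against 3 females, 10.1% of all genes were on the male-higher testosterone list and 13.5% on the female-higher one. Non-overlap in the same oil libraries helped to choose the shared genes. That choice removes many small ratios, so the oil medians and the fullest bin given here are partly set by it. The male-higher testosterone list alone had a median of 0.20 in oil birds.

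Lists chosen in other libraries also split the 6 oil libraries by sex. The 181 steady genes at least 1.5-fold higher in testosterone males had a median of 0.63 in oil birds, or 1.55-fold. Of all genes 47.2% were male-higher in oil birds, and of the 181 genes 154 were. Of these 181, 104 (57.5%) did not overlap in the oil nucleus taenia, against 7.12% of all genes and 9.95% of all steady genes of the testosterone birds. The mean deviation of the 181 genes from their average over the 6 libraries was 0.32, 0.21 and 0.27 in the oil males and -0.24, -0.38 and -0.19 in the oil females, on the log2(FPKM + 1) scale. All 3 males lay above all 3 females. Leaving out male testosterone replicate 2, the list held 140 genes with a median of 0.79 in oil birds, and the deviations were 0.30 to 0.35 in males and -0.41 to -0.27 in females. For the 117 steady genes higher in testosterone females, the deviations were -0.26, 0.05 and 0.08 in males and 0.12, 0.18 and -0.17 in females, and the sexes overlapped. Their median ratio in oil birds was -0.08.

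Of the lists used, the male-higher list from the oil hypothalamus separated the sexes most widely. Its 112 steady genes at least 1.5-fold higher in males had a median of 0.84 in the hypothalamus and 0.88 in the oil nucleus taenia, or 1.84-fold. Of all genes 47.2% were male-higher in the oil nucleus taenia, and of the 112 genes 111 were. In the nucleus taenia 98 of them (87.5%) did not overlap, against 7.12% of all genes and 10.4% of all genes steady in the hypothalamus. Their mean deviations were 0.35, 0.45 and 0.43 in males and -0.34, -0.44 and -0.44 in females. The opposite list held 13 genes, 10 of them female-higher in the nucleus taenia, with a median of -0.66. Its deviations were -0.10, -0.21 and -0.29 in males and 0.12, 0.17 and 0.30 in females, so this short list also kept the sexes apart. In both sets, the mean over all steady genes deviated by at most 0.04 in any library.

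**Figure D4:**
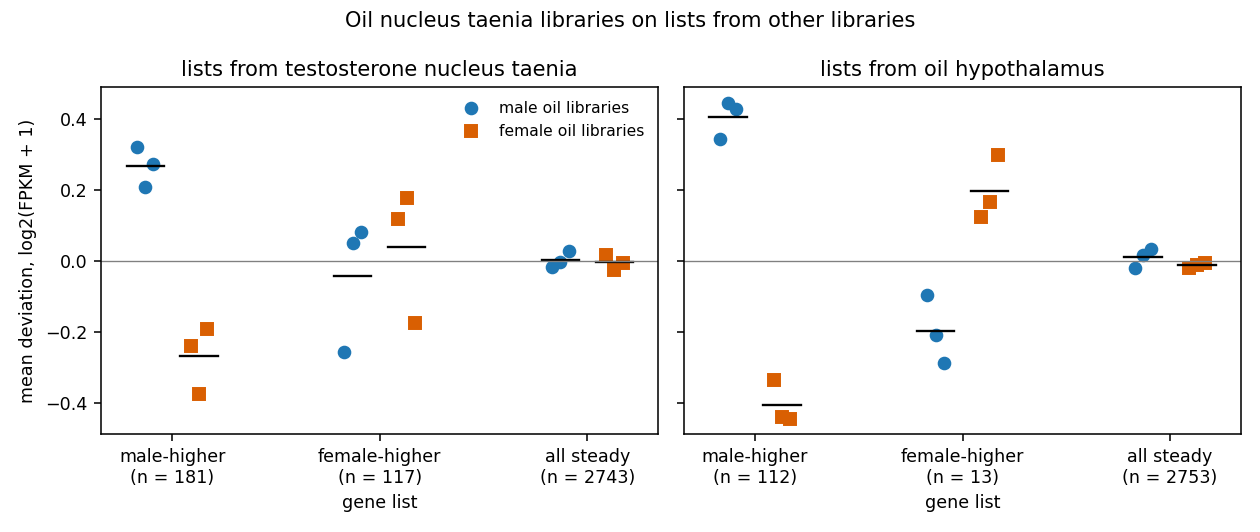
Mean deviation of each oil nucleus taenia library from the average of the 6, on the log2(FPKM + 1) scale, over gene lists chosen in the testosterone nucleus taenia (left) or the oil hypothalamus (right). Points are libraries and lines are means of 3. Both male-higher lists put all 3 males above all 3 females, the hypothalamus female-higher list of 13 genes puts all 3 females above all 3 males, and in the testosterone female-higher list the sexes overlap.

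The sex differences themselves were then compared. Between testosterone and oil birds, limma called 0 of 13462 genes (0%) for a change of the sex difference in the nucleus taenia, with 524 (3.89%) at an unadjusted p under 0.05. That last count ran from 311 without female oil replicate 3 to 1331 without male testosterone replicate 1. It was 321 when male testosterone replicate 2 was left out. The 95% interval of such a change reached a median of 2.17-fold in FPKM + 1 to either side. For 2303 genes it lay wholly within 2-fold on that scale. Between the nucleus taenia and the hypothalamus of oil birds limma called 0 genes (0%). There were 88 (0.654%) whose unadjusted p was below 0.05, and the median interval was 2.30-fold in FPKM + 1. A threshold of 0.05 passes many more genes than that when no gene differs, so the fit was strict for this contrast. The 0 calls therefore do not show that the sex difference was alike in both regions. The reason for the low count was not tested. Leaving out 1 library gave 55 to 223 such genes, and 149 without female testosterone hypothalamus replicate 3. In the fit to all 24 libraries the sex contrast of the oil hypothalamus gave 1 limma call (0.00743%), higher in males. It gave 31 calls, 29 of them higher in males, without female testosterone hypothalamus replicate 3, which bears on it only through the pooled spread. In the hypothalamus the steady genes beyond 1.5-fold were 112 male-higher and 13 female-higher, with the widest male excess at 1.87 to 2 fold (27 against 1). In the testosterone nucleus taenia they were 181 and 117, the widest male excess lay at 0 to 0.1 (353 against 316), and the next widest at 0.7 to 0.8 (39 against 23). Without male testosterone replicate 2 they were 140 and 108, with the widest male excess at 0 to 0.1 (394 against 371) and the next at 0.9 to 1.0 (23 against 9).

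The male-higher genes were unevenly spread along the identifier number. The sources give that number no meaning, and the boundary used here was chosen after the values were seen. Of the steady genes numbered under 3000, 89 of 580 (15.3%) were at least 1.5-fold higher in oil males, against 56 of 2154 (2.60%) of the others. The female-higher share was alike in both ranges, at 1.72% and 1.76%. The same uneven spread was present in testosterone birds, with 85 of 525 (16.2%) against 96 of 2218 (4.33%), and without male testosterone replicate 2 with 87 of 529 (16.4%) against 53 of 2175 (2.44%). In 134 blocks of 100 neighbouring identifiers, the number of non-overlapping male-higher genes in oil birds ranged from 1 to 18 with a median of 6. Of the 13 blocks with 13 or more, 12 ended under 3000. In testosterone birds the 13 blocks held a median of 13 such genes against 6 over all blocks, and 17 against 10 without male testosterone replicate 2. Among the 18 male-higher genes nearest to the limma threshold, 14 had numbers under 3000, as had 2476 of all 13462 genes.

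**Figure D5:**
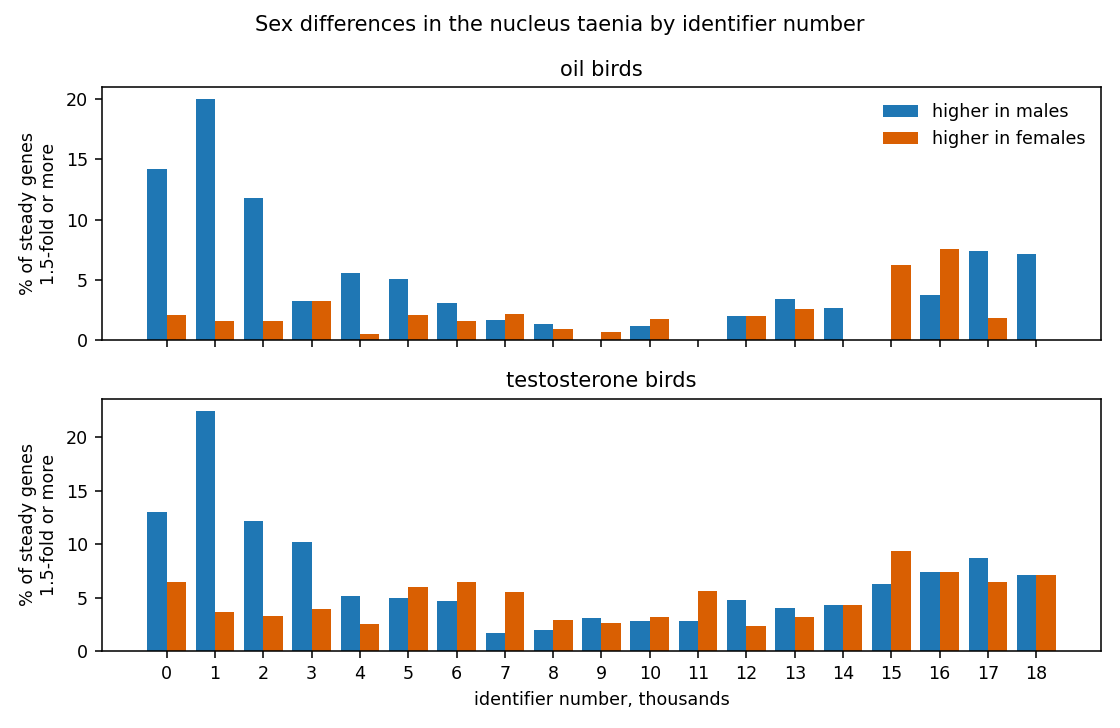
Share of steady genes at least 1.5-fold apart between the sexes, in percent, by identifier number in steps of 1000, in oil birds (upper) and testosterone birds (lower). In oil birds the male-higher share was 11.8% to 20% in the 3 steps under 3000 and at most 7.41% in the others, while the female-higher share stayed at or under 7.55% in all 19. In testosterone birds the edge was less sharp, with 12.2% to 22.5% in the 3 steps under 3000 and 10.2% in the step from 3000 to 3999.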

How the data were processed

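RNA values were deposited by the authors as FPKM for 17475 genes in 24 libraries. The submitters' processing notes list Cufflinks 2.2.1, TopHat2 2.1.1 and cutadapt 1.9.1, without their roles. No genome build is given in the sources used here, nor an annotation. Of the value columns, 0 were left without a sample. FPKM divides out depth, so the reads behind a value are lost. Low values gave no usable depth, since 3 of 15 library pairs lay within 0.1 log2 units of a common fit. Of all library pairs, 0 held mostly equal values.

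Genes with a mean of at least 1 FPKM over the 6 oil nucleus taenia libraries were tested on log2(FPKM + 1) in limma 3.58.1 (R 4.3.3), with a trend. The fit held 1 mean per group over 12 libraries (24 for the region and hypothalamus contrasts), with Benjamini-Hochberg adjustment at 0.05. The log2(FPKM + 1) scale understates changes of low genes. The script was tested on simulated data. Ratios used numpy 2.4.6 and pandas 2.3.3, and figures matplotlib 3.10.9. The members, lists and tests were chosen with earlier results of these data known. Named genes were to be the 2 largest differences in each direction past the threshold. As none passed, the largest moderated t among non-overlapping genes filled the places. Marker, steroid, peptide and Z-linked lists could not be applied, because the gene table (bTaeGut7.mat) matched 0 identifiers. Alternatives covered pseudocounts, filters, scalings, other library sets, weights, a replicate block and leaving out each library.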

Additional observations from a re-analysis of the deposited data

How the results depend on the processing

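The count of genes with a sex difference was 0 in the main limma fit and 0 in 10 of 23 alternatives. It was 2 with a pseudocount of 0.1, 1 with no filter, 1 with a minimum mean of 10 FPKM, 1 with the 6 oil libraries alone, 19 with all 24 libraries and 57 with library weights. Leaving out 1 library gave 0 to 26 genes, with 26 without male testosterone replicate 2 and 6 without male oil replicate 1. The smallest adjusted p ranged from 9.88e-06 to 0.280 by limma over these fits. A replicate block left it at 0 and put 773 genes below an unadjusted p of 0.05. Same-numbered male and female libraries had deviations that correlated at -0.18, 0.10 and -0.19, so the numbers were not taken to pair them, and this block changed no call. In a fit to the 6 oil libraries alone the replicate block removed the only call (1 gene without it, 0 with it). The change of the sex difference with treatment gave 0 to 1 genes when 1 library was left out, and the 1 gene came without male oil replicate 1, male oil replicate 2 or male testosterone replicate 1. The change with region gave 0 in all 20 alternatives. There 53 to 223 genes had an unadjusted p under 0.05, again fewer than that threshold passes when no gene differs. These 0 calls do not show that the regions were alike.

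The median log2 ratio of -0.03 (-0.0306) was -0.0170 with quantile normalization and ran from -0.0465 to -0.0103 when 1 library was left out. In the 9 single male-female library pairs that median ran from -0.0250 to 0.0201. The balance of non-overlapping genes 1 to 2-fold apart, -83 genes, turned to 14 with median-ratio scaling and to 10 with quantile normalization. It was -148 with a minimum mean of 10 FPKM and -52 with differences of log means, and ran from -245 without female oil replicate 3 to 50 without male oil replicate 1. With a library left out, 2 values are set against 3 and separate more easily, so those balances are not comparable in size with -83. The cause of these changes was not tested. The bin with the widest male excess among steady genes was centred on 0.85, and on 0.75 to 1.15 in the 13 alternatives. Over the 9 single male-female library pairs, which share libraries, it ran from 0.05 to 1.15 with an SD of 0.32. Among steady genes the excess beyond 1.5-fold, 97 genes, was 46 with the lowest 10% in SD and 55 to 119 when 1 library was left out. Both changes also alter which genes count as steady. Read depth is unknown. With groups of 3, the unadjusted interval of a single gene's sex difference reached about 1.73-fold in FPKM + 1 to either side at the median. That width is not the smallest difference that could pass after adjustment, which was not tested.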
